A study of Mus musculus with 4 samples.

Results

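The enzymes that make, recycle and balance nucleotides were followed in male germ cells of wild-type mice. The list held 35 gene symbols, and 34 of them had a row in the deposited table of 36088 genes. Adss2 had no row of its own, being the current name of the adenylosuccinate synthase gene that the table lists as Adss. Members were chosen by symbol for their place in nucleotide metabolism, and 17 were counted as de novo and 9 as salvage genes. The germ cells were sorted from fetal testes held in culture, and the cultures had been given either DMSO, the solvent control, or CBR-5884, which the labels describe as blocking serine metabolism and which is known to inhibit Phgdh, the entry enzyme of serine synthesis. Each condition had 2 libraries, numbered 2 and 4 in the table, and the sample titles give day 14. The labels call these biological replicates. The sources used here do not give the fetal age, the sorting marker, the dose, the length of exposure or whether libraries shared animals. Depth was estimated at 22.5 to 28.2 M reads per library from the spacing of the lowest values, which was regular in only part of them. Germ cell markers (Dazl, Ddx4, Mael, Tdrd1 and Sycp3) summed to 1889.3 to 1978.7 TPM. TPM is transcript abundance per length on a per-library scale, but the listed values were rescaled and totalled 966761 to 1002976. The 6 Sertoli cell markers, none of them at 0 in all libraries, summed to 105.0 and 57.8 TPM with DMSO and to 88.9 and 73.4 TPM with CBR-5884, with Amh at 16.6 to 38.5 TPM. The 5 Leydig cell markers summed to 4.48 to 6.70 TPM, the 4 smooth muscle markers to 6.97 to 12.4 TPM and the 4 endothelial markers to 9.23 to 10.4 TPM. The 4 macrophage or leukocyte markers summed to 6.90 and 10.4 TPM with DMSO and 4.49 and 13.9 TPM with CBR-5884. Of 4 erythroid markers, Hba-a1, Hbb-bs and Hbb-bt were listed at 0 in every library, and Hba-a2 at 0 with DMSO and at 0.166 and 0.364 TPM with CBR-5884.

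Purine rings are built step by step on phosphoribosyl pyrophosphate (PRPP) until inosine monophosphate (IMP) is reached, and IMP is then turned into AMP or GMP. Serine bears on this route because it supplies glycine, which enters the ring whole, and the folate-bound carbon used by Gart and Atic. Pyrimidine rings are closed before ribose phosphate is added, and thymidylate synthesis again takes a folate-bound carbon. Salvage enzymes instead rebuild nucleotides from free bases and nucleosides, and ribonucleotide reductase turns ribonucleotides into the deoxynucleotides needed to copy DNA.

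Promoter windows are shown for Ppat and Paics, which start close together on opposite strands and catalyse steps of the same route. They are also shown for Prps1 and Adk, which had the smallest p-values of the de novo genes and of the higher genes. Each window runs from 250 bases before to 50 bases after a start site, is taken from RefSeq on GRCm38.p6 and is written 5′ to 3′ on the gene's strand. Capitals mark CCAAT (the box bound by NF-Y), CACGTG (an E-box bound by the Myc family) and the E2F-type words TTTGGCGC, TTTCCCGC, TTTCGCGC and TTTGCCGC, all searched on both strands.
Ppat, chr5:76951529-76951828, minus strand: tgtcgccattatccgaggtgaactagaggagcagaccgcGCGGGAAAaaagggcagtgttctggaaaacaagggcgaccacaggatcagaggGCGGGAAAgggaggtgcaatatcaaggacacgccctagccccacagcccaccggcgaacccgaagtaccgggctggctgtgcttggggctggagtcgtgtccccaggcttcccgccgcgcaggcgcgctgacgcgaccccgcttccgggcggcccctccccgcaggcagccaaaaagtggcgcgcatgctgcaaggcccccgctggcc
Paics, chr5:76951052-76951351, plus strand: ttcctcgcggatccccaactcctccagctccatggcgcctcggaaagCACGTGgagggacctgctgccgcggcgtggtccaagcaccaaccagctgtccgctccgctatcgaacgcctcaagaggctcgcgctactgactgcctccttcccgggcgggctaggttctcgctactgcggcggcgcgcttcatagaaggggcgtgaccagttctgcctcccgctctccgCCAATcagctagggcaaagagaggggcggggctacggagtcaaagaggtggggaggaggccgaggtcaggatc
Prps1, chrX:140456353-140456652, plus strand: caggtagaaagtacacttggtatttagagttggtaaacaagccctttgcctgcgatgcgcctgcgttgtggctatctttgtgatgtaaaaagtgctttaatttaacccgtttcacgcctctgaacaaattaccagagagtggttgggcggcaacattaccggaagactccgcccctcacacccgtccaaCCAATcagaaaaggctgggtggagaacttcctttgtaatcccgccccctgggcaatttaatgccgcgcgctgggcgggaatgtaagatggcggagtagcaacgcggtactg
Adk, chr14:21052324-21052623, plus strand, upstream start: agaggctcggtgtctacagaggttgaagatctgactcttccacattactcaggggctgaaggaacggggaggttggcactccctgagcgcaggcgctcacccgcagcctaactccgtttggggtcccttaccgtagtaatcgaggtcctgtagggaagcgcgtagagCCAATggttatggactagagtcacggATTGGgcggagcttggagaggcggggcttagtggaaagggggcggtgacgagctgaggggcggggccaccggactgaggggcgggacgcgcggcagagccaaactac

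The start sites of Ppat and Paics lay 276 bases apart on opposite strands. Each gene ran past the start of the other, so their 5′ ends overlapped, while their promoter windows did not. Counted from the start site, the Paics window held the E-box at base −203 and CCAAT at base −23, and the Ppat window held E2F-type words at bases −211 and −158. The Prps1 window held CCAAT at base −61, and that of Adk held it at −83 and, on the other strand, at −57. Promoter windows were found for 32 members, with 40 windows in all. The E-box was in 12.5% of these windows (those of Atic, Impdh2, Paics and both starts of Nme1) against 7.15% of 32851 windows of all genes, and an E2F-type word in 5.0% (Ppat and Prps2) against 2.26%. CCAAT was in 32.5% against 37.4%, and TGACGTCA, the cAMP response element, in 5.0% (Dguok and Umps) against 1.79%. None of these matches overlapped another, and a match is a description of letters only.

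Nucleotide genes were mostly abundant, and their levels were close between the conditions. Impdh2 was the highest member at 371.5 to 395.1 TPM and Ada the lowest at 1.06 to 3.73 TPM. The mean level of 29 members was above the median of all tested genes, 21.4 TPM. Of the 34 members, 0 passed a limma adjusted p under 0.05, as did 0% of the 14920 genes tested, and the smallest adjusted p among members was 0.998. Unadjusted p-values under 0.05 belonged to 3 members, Prps1 and Uck1 with lower and Adk with higher values, or 8.82% of the list against 3.66% of all tested genes. Both CBR-5884 libraries lay below both DMSO libraries for 10 members (29.4%), against 17.7% of all tested genes, and above them for 3 (8.82%), against 13.6%. These counts use the values as listed, where the TPM total was lowest in CBR-5884 library 4 (966761, against 997741 to 1002976). They were not repeated with libraries scaled to equal totals. The log2 fold changes, CBR-5884 minus DMSO on the log2(TPM + 1) scale, had a median of −0.06 over members and −0.01 over all tested genes. All fold changes and their intervals are given on this log2 scale, except values written as -fold. The typical member had an unadjusted 95% interval of ± 0.24 on that scale, or 1.18-fold, with a range from 0.17 to 1.05, and larger differences also failed the adjusted test. In bulk RNA, fewer cells of a type and less RNA per cell cannot be told apart, and the part of the other cell types' signal in these values was not tested.

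**Figure D1:**
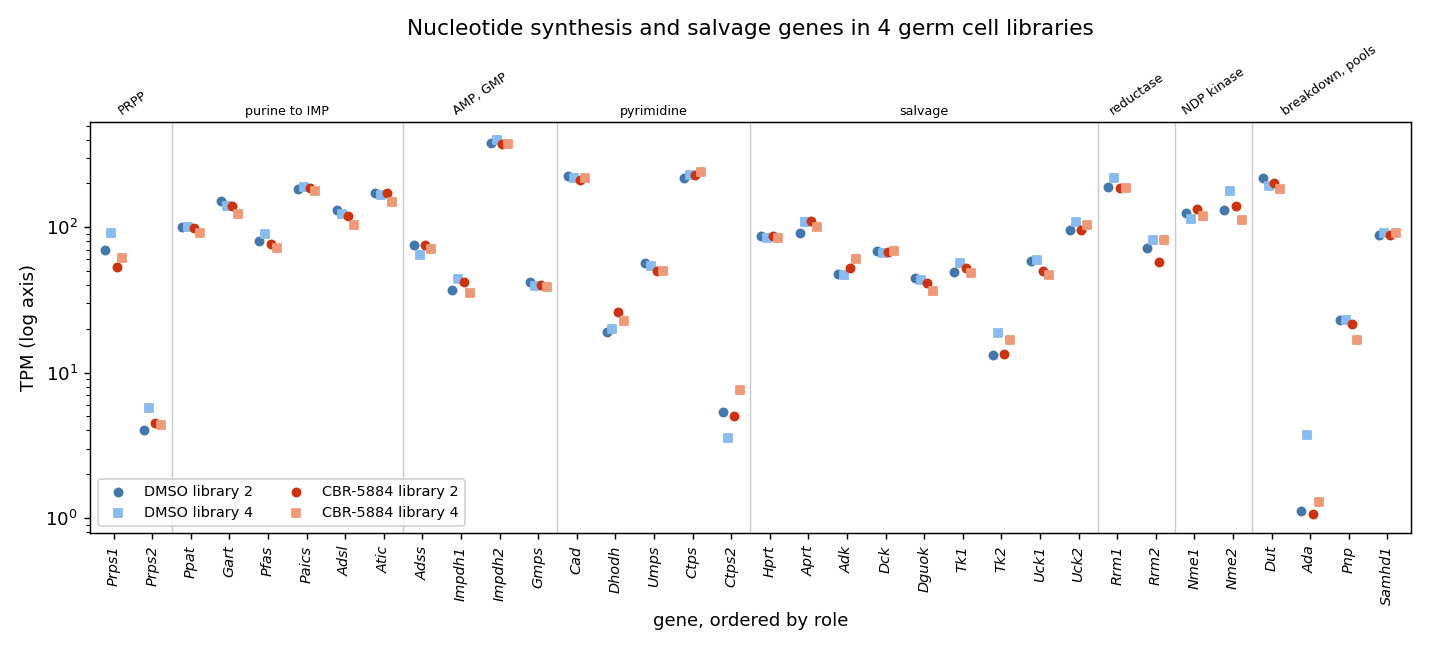
Level of each member in TPM (log axis) in the 4 libraries, with genes ordered by role; blue points are DMSO and red points CBR-5884, circles library 2 and squares library 4. Most genes sit between 35 and 250 TPM with the 4 points close together, and Ada, Prps2 and Ctps2 lie below 10 TPM.

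PRPP synthetases make the activated ribose phosphate that both routes consume. Prps1, on chromosome X from 140456613 to 140476140, was at 70.1 (library 2) and 91.1 TPM (library 4) under DMSO, compared with 52.9 and 61.3 TPM under CBR-5884. Both CBR-5884 values were below both DMSO values, with means of 80.6 ± 14.9 and 57.1 ± 5.94 TPM (SD, n = 2). The log2 fold change was −0.48 (SE 0.15; 95% interval −0.84 to −0.12) with an unadjusted limma p of 0.0166, which did not survive adjustment over all genes (0.998). Prps2, the other widely expressed synthetase and also X-linked, was near the lower end of the list at 4.01 and 5.74 TPM with DMSO and 4.53 and 4.34 TPM with CBR-5884. Prps1 made up 94.6 and 94.1% of the summed TPM of both genes with DMSO and 92.1 and 93.4% with CBR-5884.

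Part of the Prps1 sequence recurs in Prps1l3 on chromosome 12 (57230412 to 57239882), which holds 18.5% of the 31-base words of Prps1. Prps1l3 was listed at 80.8 and 70.9 TPM with DMSO and 73.3 and 67.1 TPM with CBR-5884, so its groups overlapped. How kallisto divided shared reads between Prps1 and Prps1l3 is uncertain. Together they had 150.9 and 162.0 TPM with DMSO and 126.1 and 128.4 TPM with CBR-5884. The summed value again had CBR-5884 libraries below DMSO libraries, with a log2 fold change of −0.29 (95% interval −0.48 to −0.11). Its limma p was 0.00856 unadjusted and 0.998 adjusted. Without DMSO library 4 the Prps1 fold change was −0.30 and without DMSO library 2 it was −0.67.

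All 6 enzymes of the route from PRPP to IMP had negative fold changes, while 47.2% of all tested genes had positive ones. None of the 6 passed the threshold or had an unadjusted p under 0.05. Their median was −0.11 and their range −0.20 to −0.04. It was −0.08 with libraries scaled to equal totals, but it was −0.21 without CBR-5884 library 2 and −0.04 without CBR-5884 library 4, where 5 of the 6 were negative. Ppat, the amidotransferase that commits PRPP to purines, had 100.9 and 100.7 TPM with DMSO and 98.9 and 91.8 TPM with CBR-5884. Gart, which carries several activities of the route including a folate-dependent formyl transfer, had 150.8 and 140.4 TPM against 140.6 and 123.3 TPM. Its groups overlapped narrowly. Pfas, which adds the next nitrogen from glutamine, had 80.8 and 90.1 TPM with DMSO and 76.7 and 71.9 TPM with CBR-5884. It had the lowest fold change of the 6, −0.20 (95% interval −0.43 to 0.03), and the difference between conditions exceeded the gap between libraries within either.

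Paics, which carries out successive later steps of the route, was the most abundant enzyme of the route at 183.8 and 190.0 TPM with DMSO and 186.4 and 176.3 TPM with CBR-5884. Adsl, the lyase that acts both before IMP and in AMP synthesis, had 130.3 and 122.7 TPM against 119.9 and 104.0 TPM, with CBR-5884 values below DMSO values (fold change −0.18, 95% interval −0.41 to 0.06). Atic, which adds the last folate-bound carbon and closes the ring, had 172.3 and 167.2 TPM against 172.6 and 149.6 TPM. Here only CBR-5884 library 4 stood below the DMSO values, as it did for Paics. The annotated 5′ ends of Ppat and Paics overlap on opposite strands. Ppat made up 35.4 and 34.6% of the summed TPM of that pair with DMSO and 34.7 and 34.2% with CBR-5884.

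Enzymes of the AMP and GMP branches had fold changes from −0.06 to 0.06, none past the threshold. Impdh2, the main IMP dehydrogenase of dividing cells and the first step towards GMP (chromosome 9, 108560286 to 108565584), had 379.8 and 395.1 TPM with DMSO and 371.5 and 372.8 TPM with CBR-5884. As listed, both treated values sat below both controls, an order not checked with libraries scaled to equal totals. The fold change was −0.06 with a 95% interval of −0.23 to 0.11. A processed pseudogene, Impdh2-ps, holds 43.2% of its words and was listed at 0.0247 to 13.8 TPM, and the summed values were 393.6 and 395.1 TPM against 372.8 and 378.3 TPM. Impdh1, the second dehydrogenase gene, had 37.0 and 43.7 TPM against 42.2 and 35.2 TPM, or 8.64 to 10.2% of the pair. Gmps, which aminates the product to GMP, had 42.0 and 39.6 TPM against 40.1 and 38.8 TPM. Adss, which commits IMP to AMP, had 75.7 and 64.8 TPM against 75.3 and 70.6 TPM, and was the 1 branch gene with a positive fold change (0.06).

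De novo pyrimidine genes had 3 positive and 2 negative fold changes, none past the threshold. Cad, a fused enzyme for the opening steps, had 223.7 and 217.2 TPM with DMSO and 211.8 and 217.8 TPM with CBR-5884, with an interval of −0.21 to 0.13. Dhodh, the mitochondrial dehydrogenase that links the route to the respiratory chain (chromosome 8, 109591343 to 109608673), had 19.1 and 20.1 TPM against 26.0 and 22.7 TPM. Both CBR-5884 values were above both DMSO values (log2 fold change 0.30, 95% interval −0.02 to 0.61), with a limma adjusted p of 0.998. Umps, which completes UMP, lay the other way, with 56.3 and 54.0 TPM against 49.7 and 49.6 TPM (fold change −0.15, 95% interval −0.36 to 0.07). Ctps, the main CTP synthase, had 219.5 and 227.5 TPM against 228.6 and 240.8 TPM, above DMSO in both CBR-5884 libraries by a small amount (fold change 0.07, 95% interval −0.11 to 0.25). Ctps2, its second gene, was low and variable at 5.38 and 3.57 TPM against 5.01 and 7.63 TPM. Ctps supplied 96.9 to 98.5% of the summed TPM of that pair.

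**Figure D2:**
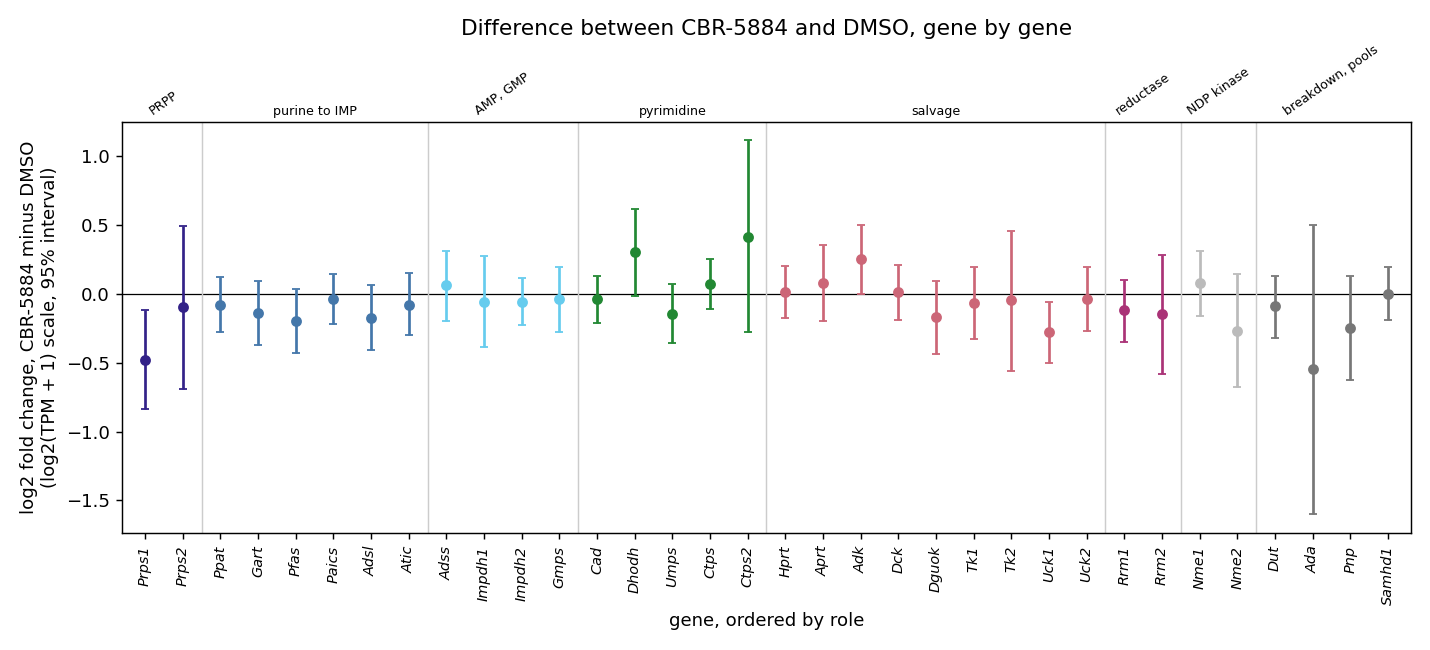
Log2 fold change of each member, CBR-5884 minus DMSO on the log2(TPM + 1) scale, with limma 95% intervals, coloured by role. The intervals of Prps1 and Uck1 lie below 0 and that of Adk just above it, before any adjustment for multiple genes; those of the other 31 members include 0.

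Salvage genes were split, with 4 positive and 5 negative fold changes and a median of −0.04. When libraries were centred on their medians, 2 were positive and 7 negative. Purine bases are recovered by Hprt and Aprt. Hprt, which acts on hypoxanthine and guanine, had 86.4 and 84.1 TPM with DMSO and 87.1 and 84.4 TPM with CBR-5884, a fold change of 0.01 with an interval of −0.18 to 0.20. Aprt, the adenine enzyme, had 91.0 and 109.1 TPM against 110.2 and 100.4 TPM, with overlapping groups.

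Adk phosphorylates adenosine to AMP and lies on chromosome 14 from 21052574 to 21448569. DMSO library 2 held 47.6 TPM and DMSO library 4 held 46.6 TPM, compared with 52.7 and 60.1 TPM under CBR-5884. Both CBR-5884 libraries were above both DMSO libraries, which differed from each other by little, with means of 47.1 ± 0.75 and 56.4 ± 5.25 TPM (SD, n = 2). The log2 fold change was 0.25 (SE 0.10; 95% interval 0.00 to 0.50) with an unadjusted limma p of 0.0485 and an adjusted p of 0.998. RefSeq gives 2 start sites for Adk, and the gene values do not separate them.

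Deoxynucleoside kinases had fold changes from −0.17 to 0.01, none past the threshold. Dck, the cytosolic deoxycytidine kinase, had 69.0 and 66.9 TPM against 68.0 and 68.5 TPM, and its interval of −0.19 to 0.21 spanned 0.88-fold to 1.15-fold. Dguok, the mitochondrial deoxyguanosine kinase, had 44.7 and 43.0 TPM with DMSO and 41.3 and 36.3 TPM with CBR-5884, a fold change of −0.17 (95% interval −0.44 to 0.09). Tk1, the thymidine kinase of S phase, had 49.5 and 56.7 TPM against 52.3 and 48.7 TPM. Its mitochondrial counterpart Tk2 had 13.2 and 18.6 TPM with DMSO and 13.5 and 16.8 TPM with CBR-5884, with library 4 the higher in each condition.

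Uridine and cytidine are phosphorylated by Uck1 and Uck2. Uck1, on chromosome 2 from 32255002 to 32260159, had 58.6 and 59.3 TPM with DMSO and 50 and 46.9 TPM with CBR-5884. The DMSO libraries were nearly equal and both lay above the CBR-5884 libraries, with means of 58.9 ± 0.465 and 48.4 ± 2.19 TPM (SD, n = 2). The log2 fold change was −0.28 (SE 0.09; 95% interval −0.50 to −0.06) with an unadjusted limma p of 0.0204 and an adjusted p of 0.998, and it ranged from −0.32 to −0.23 as each library was left out. A processed pseudogene, Gm4482, holds 20.8% of its words but was listed at 0 in 3 libraries and at 1.06 TPM in CBR-5884 library 2. Uck2, the more abundant paralog, had 96.4 and 108.3 TPM against 95 and 103.9 TPM, with overlapping groups and the higher value in library 4 of each condition. The share of Uck1 in the pair was 37.8 and 35.4% with DMSO and 34.5 and 31.1% with CBR-5884. Whether Uck1 and Uck2 differ in their response was not tested.

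**Figure D3:**
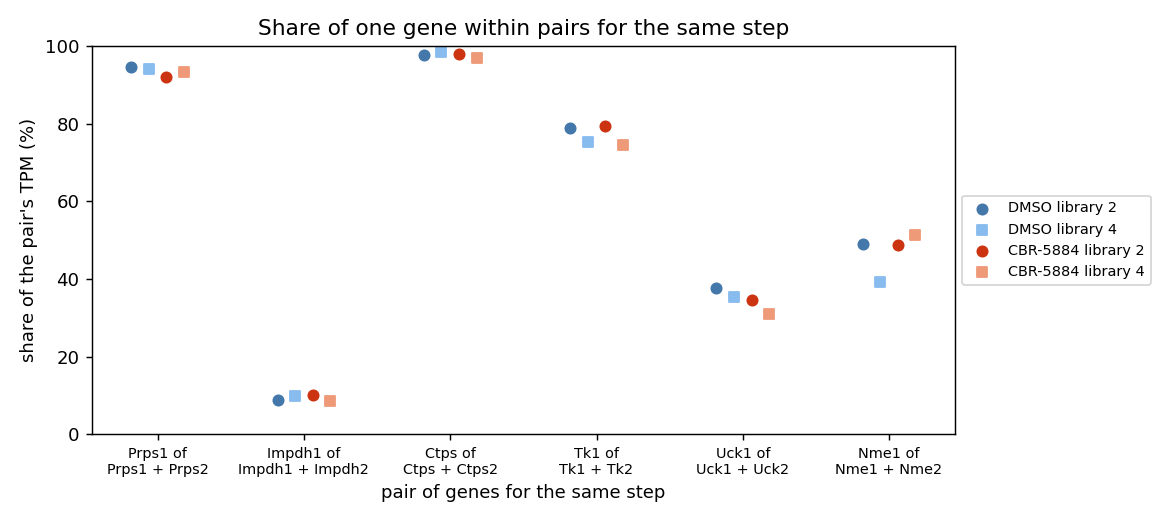
Share of the summed TPM taken by the named gene within 6 pairs of genes for the same step, in the 4 libraries (blue DMSO, red CBR-5884; circles library 2, squares library 4). Prps1 and Ctps hold over 90% of their pairs and Impdh1 holds 8.64 to 10.2% of its pair, while the Nme1 share runs from 39.1% in DMSO library 4 to 51.4% in CBR-5884 library 4. Prps1l3 and Gm20390, which share sequence with Prps1 and with Nme1 and Nme2, are left out of these shares.

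Summed over genes, de novo mRNA was above salvage mRNA in every library. The 17 de novo genes summed to 1951.4 and 1973.6 TPM with DMSO and 1902.7 and 1838.5 TPM with CBR-5884. Both CBR-5884 sums were below both DMSO sums, also when libraries were scaled to equal totals (1945.6 and 1976.1 against 1907.0 and 1901.7 after scaling). The 9 salvage genes summed to 556.4 and 592.6 TPM against 570.0 and 565.9 TPM, with the CBR-5884 libraries inside the DMSO range. The ratio of the sums was 3.51 and 3.33 with DMSO and 3.34 and 3.25 with CBR-5884, so the groups overlapped. With 2 libraries against 2 an exact two-sided permutation test cannot give a p below 0.33, and none was run on these sums. Gene by gene, 13 of 17 de novo genes had a negative fold change (median −0.06), against 5 of 9 salvage genes (median −0.04). Of all tested genes, 47.2% had a positive fold change. The salvage median was −0.12 without DMSO library 2, 0.03 without DMSO library 4, 0.01 without CBR-5884 library 2 and −0.02 without CBR-5884 library 4, while leaving out CBR-5884 library 2 gave a de novo median of −0.12 and leaving out CBR-5884 library 4 gave −0.03.

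**Figure D4:**
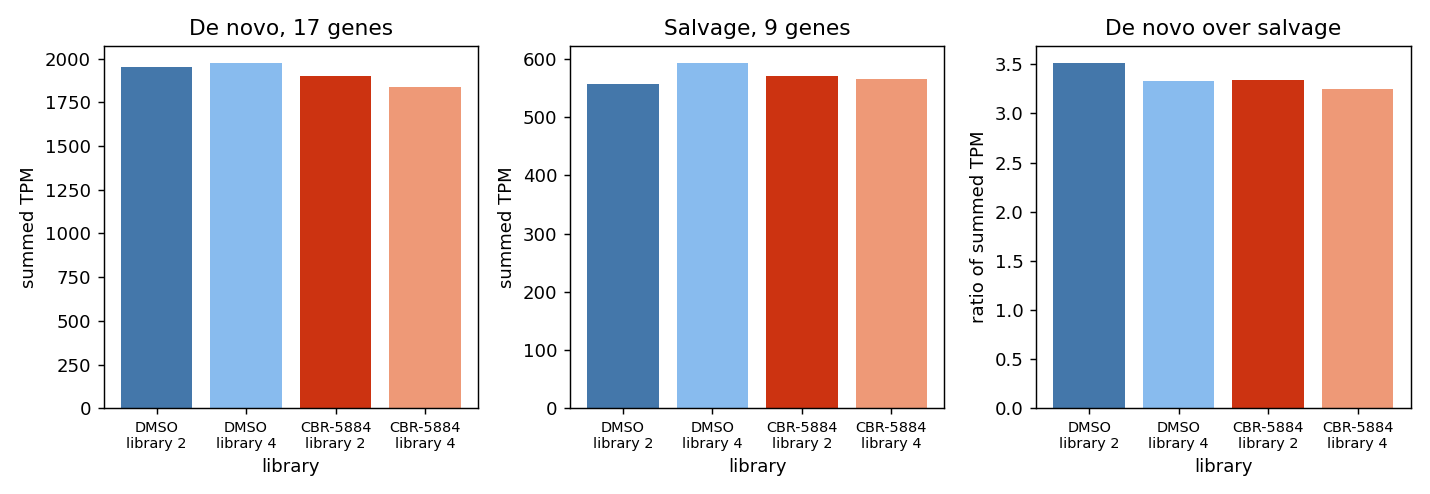
Summed TPM of the 17 de novo genes (left) and the 9 salvage genes (middle) in each library, and their ratio (right); each bar is 1 library. The de novo bars run from 1838.5 to 1973.6 TPM with both CBR-5884 libraries lowest, and the ratio runs from 3.25 to 3.51 with overlapping groups.

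Ribonucleotide reductase pairs the catalytic subunit Rrm1 with the S phase subunit Rrm2. Rrm1, on chromosome 7 from 102441695 to 102469771, had 188.2 and 218.4 TPM with DMSO and 187.3 and 184.8 TPM with CBR-5884. DMSO library 4 stood above the other 3 libraries, and without it the fold change was near 0 (−0.02, against −0.12 with all libraries). Rrm2, on chromosome 12 from 24708241 to 24714146, had 71.4 and 81.9 TPM with DMSO and 57.6 and 82.3 TPM with CBR-5884. Its CBR-5884 libraries were the lowest and the highest of the 4, which gave an interval of −0.58 to 0.28. Rrm2b, the p53-regulated alternative to Rrm2, had 14.1 and 10.7 TPM against 12.4 and 15.8 TPM.

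Nucleoside diphosphate kinases pass phosphate between the pools. Nme1 (chromosome 11, 93956979 to 93968521) had 126.0 and 113.2 TPM with DMSO and 133.5 and 119.0 TPM with CBR-5884, higher in library 2 of each condition. Its downstream neighbour Nme2 (93949814 to 93956259) had 130.4 and 176.4 TPM against 140.0 and 112.8 TPM, with the highest value in DMSO library 4 and the lowest in CBR-5884 library 4. The table also lists Gm20390, a protein-coding gene annotated across both (93949819 to 93968293), at 352.0 and 379.0 TPM with DMSO and 331.0 and 354.0 TPM with CBR-5884. It holds 47.9% of the words of Nme2 and 11.7% of those of Nme1, and it was listed above either. How reads were divided among the 3 genes is therefore uncertain. Nme1 and Nme2 were also summed with Gm20390 and 3 low pseudogenes of Nme2 on other chromosomes (Gm5566, Gm7730 and Gm5425). The sum was 609.1 and 669.4 TPM against 607.1 and 588.4 TPM, a fold change of −0.10 (95% interval −0.29 to 0.10). For Nme2 alone the interval was −0.68 to 0.14.

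**Figure D5:**
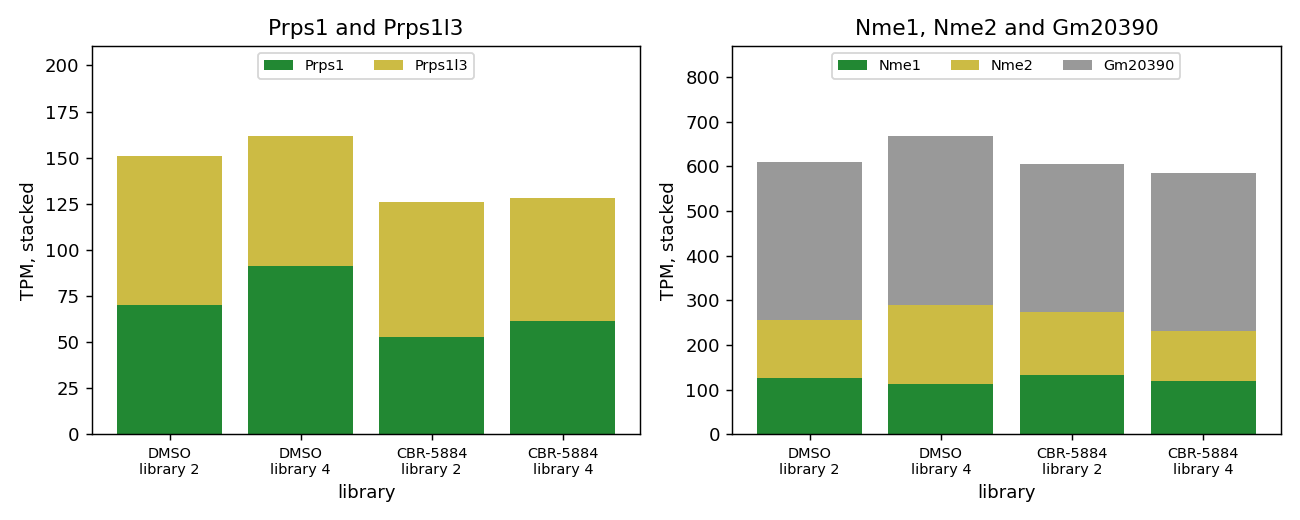
Stacked TPM in each library of Prps1 with Prps1l3 (left) and of Nme1, Nme2 and Gm20390 (right), genes that share sequence. The Prps1 total is 150.9 and 162.0 TPM with DMSO and 126.1 and 128.4 TPM with CBR-5884, and Gm20390 is the largest part of the Nme total in every library.

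Genes that break nucleotides down or limit their pools included Ada, the member with the widest interval. Dut, which removes dUTP before it can enter DNA, had 216.8 and 192.9 TPM with DMSO and 200.2 and 183.1 TPM with CBR-5884. Samhd1, a triphosphatase that lowers deoxynucleotide pools, had 89.0 and 91.4 TPM against 88.9 and 91.9 TPM, a fold change of 0.00 with an interval of −0.19 to 0.19. Ada, the adenosine deaminase that competes with Adk for its substrate, had 1.12 and 3.73 TPM against 1.06 and 1.28 TPM. DMSO library 4 alone set it apart: the fold change was −0.55 with an interval of −1.60 to 0.50, and it was 0.03 without that library. Pnp, the purine nucleoside phosphorylase, had 22.9 TPM in both DMSO libraries and 21.7 and 16.8 TPM with CBR-5884 (fold change −0.25, 95% interval −0.63 to 0.13). Pnp2 and Gm49342 hold 15.1 and 17.5% of its words, and the sum of the 3 was 23.7 and 26.7 TPM against 22.1 and 21.1 TPM.

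Which members had a small p depended on single libraries. Without DMSO library 4, 0 of 34 members had an unadjusted limma p under 0.05, against 3.55% of all genes in that fit. Without DMSO library 2 these were Ada, Nme2 and Prps1 (6.93% of all genes), without CBR-5884 library 2 Adk, Adsl and Uck1 (3.8%), and without CBR-5884 library 4 Prps1 and Rrm2 (2.79%). With so few members at these shares, the counts are not a result about the list. The difference between conditions was larger than the gap between libraries in both conditions for 6 of 34 members (Prps1, Pfas, Dhodh, Umps, Adk and Uck1), close to the share of all tested genes (19.9%).

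Further genes of nucleotide metabolism came from a list of 63 names, of which 62 had a row and 48 were abundant enough to test. Of these 48, 0 passed the adjusted threshold, 22 had positive and 26 negative fold changes with a median of −0.01, and 2 had an unadjusted p under 0.05, near the share of all tested genes (3.66%). Both had lower values and are given as measurements. Ak4, a mitochondrial adenylate kinase (chromosome 4, 101419277 to 101466995), had 77.8 and 85.7 TPM with DMSO and 54.7 and 63.9 TPM with CBR-5884. The CBR-5884 libraries lay below both controls, with a fold change of −0.46 (95% interval −0.73 to −0.19) and a limma p of 0.00567 unadjusted and 0.998 adjusted. Slc29a1, the equilibrative transporter that brings nucleosides into cells (chromosome 17, 45585200 to 45599606), had 35.9 and 35.3 TPM against 29.9 and 27.3 TPM, a fold change of −0.31 (95% interval −0.57 to −0.04). Its limma p was 0.0285 unadjusted and 0.998 adjusted.

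Thymidylate supply consumes folate-bound carbon from serine, and none of its genes named here passed the threshold at the mRNA level. Tyms, the thymidylate synthase, had 100.3 and 96.5 TPM with DMSO and 87.7 and 92.6 TPM with CBR-5884, below DMSO in both libraries (fold change −0.13, 95% interval −0.32 to 0.07). Dctd, which makes dUMP from dCMP, had 94.7 and 87.7 TPM against 94.3 and 90.9 TPM. The next kinase, Dtymk, had 113.3 and 88.9 TPM against 103.2 and 105.7 TPM, with the DMSO libraries as the extremes and a 95% interval of −0.25 to 0.36. Cmpk1, the UMP and CMP kinase, had 162.5 and 141.9 TPM against 170.4 and 157.3 TPM. Low levels were listed for Uprt, a gene related to uracil phosphoribosyltransferases, at 3.62 to 5.02 TPM, and for Xdh, the xanthine oxidising end of purine breakdown, at 6.99 to 12.2 TPM.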

How the data were processed

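RNA was extracted with a column kit and 100 ng of total RNA per library went into TruSeq libraries, per the labels. The submitters' processing notes name fastp, kallisto and mm10, and the deposited table gives gene TPM and a length-scaled read signal for each library (TPM totals 966761 to 1002976, lowest in CBR-5884 library 4). The sources used here do not give versions, strand setting or transcript set. Whole reads could not be recovered from the deposited values (34.7 to 35.9% of low values were whole steps within 0.05), so no count test was run. Table libraries are numbered 2 and 4 and the labels number replicates 1 and 2, so each library has a certain condition but no certain label number. Genes with mean TPM of at least 1 (14920 of 36088) were fitted with limma 3.58.1 in R 4.3.3 on log2(TPM + 1), with all 4 libraries, a mean-dependent variance and two-sided Benjamini-Hochberg adjusted p under 0.05. Positions are from GENCODE M21 (GRCm38), and shared sequence is the share of a gene's 31-base words found in another gene, reported from 10%. The members and lists were chosen with earlier results of these data known. All members are named, and of the related genes 8 set by name (1 of them is not reported here) and each with unadjusted p under 0.05. Alternatives were the pseudocount, expression filter, deposited signal, equal totals, median centring, robust variance, a replicate block and leaving out each library. Summing near-identical copies was added after seeing the data.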

Additional observations from a re-analysis of the deposited data

How the results depend on the processing

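Of 14920 genes, 0 passed the limma threshold (546 at unadjusted p under 0.05). The count was 1 with the deposited signal (Hspa1b, lower), 1 with robust variance (a gene without a symbol, higher) and 0 in the other settings, where 397 to 1079 genes had an unadjusted p under 0.05. No member passed in any setting. As each library was left out, the de novo median ran from −0.12 (without CBR-5884 library 2) to −0.03 (without CBR-5884 library 4) and the salvage median from −0.12 (without DMSO library 2) to 0.03 (without DMSO library 4). The cause was not tested. These fits leave 1 arm with a single library, assumed to vary like the other arm. Libraries of the same number had deviations correlated at 0.20. This is a single comparison, the labels do not give these numbers, and whether the numbers pair the libraries is not known. With a replicate block 0 genes passed, 797 had an unadjusted p under 0.05, and the smallest adjusted p of a member was 0.475 (Prps1, SE 0.09 against 0.15). The block cannot move a fold change in this balanced layout, so the medians (−0.06 and −0.04) are the same by construction. The count of members at unadjusted limma p under 0.05 was 2 (Prps1 and Uck1) with a pseudocount of 0.1, the deposited signal, median centring or robust variance. It was 4 (Adk, Dhodh, Prps1 and Uck1) with equal totals. In these settings 505 to 555 of all 14920 genes had such a p, and the member counts are not a result about the list. The number of libraries, 2 a group, limits the precision.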
